A study of Mus musculus with 20 samples.

Results

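Footprint levels of 4 transcripts that encode major chaperones of the endoplasmic reticulum, Hspa5, Hsp90b1, Calr and P4hb, were followed through every library of a study of mouse embryonic fibroblasts. The members were chosen for the function of their proteins, by transcript identifier, and make up 4 of the 15354 transcripts found in any file. All 4 were listed in 20 of 20 files. Footprints are the short RNA fragments that a ribosome shields from nuclease, so their number on a transcript reflects how many ribosomes sat on it, which depends both on the amount of mRNA and on its translation. Ribo-seq sampled all ribosomes (12 libraries, 2 in each of 6 groups), and the other assay sampled 80S ribosomes associated with the initiation factor eIF3 (eIF3-80S, 8 libraries).

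Cells were of strain C57BL/6J and were either control cells, cells in which Ogt had been knocked out, or cells given Thiamet-G. Ogt encodes the transferase that attaches O-GlcNAc, a single sugar, to intracellular proteins, and Thiamet-G inhibits the enzyme that takes it off. The knockout was induced with 0.5 µM 4-OHT for 24 h and a further 24 h in fresh medium. The labels give this treatment for knockout cells only, so effects of the knockout and of 4-OHT cannot be told apart. Neither the driver of the recombinase nor the number of cell lines behind the knockout is given in the sources used here. The Thiamet-G dose was 0.1 µM and the exposure lasted 16 h. Each of these 3 backgrounds was fed or was starved of amino acids for 2 h in DMEM with "DFBS", which the labels do not spell out. In eIF3-80S, fed and starved control cells had 2 libraries each and the other 4 groups had 1. Nothing in the labels states whether replicates came from different cultures, and the spread on which p-values rest may therefore be technical.

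The endoplasmic reticulum is where secreted and membrane proteins are folded, a task that is heavy in fibroblasts because they export collagen and other matrix proteins. Hspa5 (BiP) is the Hsp70 of that compartment and also holds the stress sensors of the unfolded protein response in check. Hsp90b1 (GRP94) is its Hsp90, Calr (calreticulin) binds glycoproteins through their sugars and stores calcium, and P4hb is protein disulfide isomerase, which also serves as a subunit of collagen prolyl hydroxylase. When unfolded proteins accumulate, the factors ATF6 and XBP1 raise transcription of chaperone genes through an element that pairs a CCAAT box with CCACG. Amino acid starvation engages another stress pathway, the integrated stress response, which lowers general initiation.

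RPKM, the read count scaled to coding length and to the library's total, was the deposited unit. Whole reads and coding lengths were recovered from the steps between RPKM values. The coding length was 1968 nt (656 codons) for Hspa5 (ENSMUST00000028222), 2409 nt (803 codons) for Hsp90b1 (ENSMUST00000020238), 1251 nt (417 codons) for Calr (ENSMUST00000003912) and 1530 nt (510 codons) for P4hb (ENSMUST00000026122). In the RefSeq annotation of GRCm38.p6 the genes lie at chr2:34772090-34776529 (Hspa5), chr10:86690841-86705444 (Hsp90b1), chr8:84842088-84846931 (Calr) and chr11:120560298-120573253 (P4hb). The files hold coding reads per transcript and resolve no exon or untranslated region.

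The promoters that hold this element are shown because it is a textbook feature of chaperone genes of this compartment. Its part in the footprint levels was not tested. The RefSeq window of 250 bases before to 50 after each gene start (GRCm38.p6) was searched on both strands for the element CCAAT, then any 9 bases, then CCACG, which reads CGTGG, any 9 bases, ATTGG when it runs the other way. It was found in 3 of the 4 windows and in 39 of 32851 windows of all genes (0.119%). The P4hb window held no match to these letters. The matches follow 5′ to 3′ on the strand of the gene, with the element in capitals and 20 bases on either side.
Hspa5, chr2:34772005-34772063, plus strand: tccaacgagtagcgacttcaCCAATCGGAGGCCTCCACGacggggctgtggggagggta
Calr, chr8:84847055-84847113, minus strand, element reversed: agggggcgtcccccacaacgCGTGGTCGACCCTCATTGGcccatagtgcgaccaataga
Hsp90b1, chr10:86705618-86705676, minus strand: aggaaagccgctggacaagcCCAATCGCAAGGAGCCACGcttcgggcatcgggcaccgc
Hsp90b1, chr10:86705513-86705571, minus strand, element reversed: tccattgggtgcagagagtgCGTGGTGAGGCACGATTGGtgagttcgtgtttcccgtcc
In Hspa5 the element ended 47 bases before the gene start, in Calr 144 bases before it, and in Hsp90b1 194 and 89 bases before it. A related shorter element, ATTGG and CCACG with any 1 base between them, was searched for on both strands and was in 12 windows (0.0365%), and in 0 of the 4. A match describes these letters only, and neither transcription nor binding was measured here.

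Depth bore on every value. Ribo-seq libraries held 844403 to 5846130 coding reads, and each chaperone had at least 250 reads in each of them. The eIF3-80S libraries were shallower, with 52148 to 359282 reads. The thinnest value there was Hsp90b1 in starved control replicate 1, with 27 reads, where counting error alone (95% Poisson interval) allows 142 to 313 RPKM around the measured 215. PCR copies are not independent molecules, so such intervals cover counting error only. The Ribo-seq files also fall into 2 sets of 6, with 1 library of each group in each set. In one set almost no transcript with fewer than 5 reads is listed (at most 0.09% of those with recovered reads). In the other set 11.8% to 19.7% of them have fewer than 5 reads. Fed control replicate 1, fed Thiamet-G replicate 1 and starved Thiamet-G replicate 2 are all in the set listed from 5 reads, and they were the lowest libraries for every chaperone.

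Calr was the most heavily read of the 4 per unit of length in all 20 libraries. In Ribo-seq its median was 1391 RPKM (range 270 to 2269, n = 12), against 562 for Hspa5 (119 to 786), 536 for P4hb (170 to 910) and 299.9 for Hsp90b1 (58.1 to 438). Calr stood within the top 0.72% to 8.80% of the transcripts listed in a library. The order Calr, P4hb, Hspa5, Hsp90b1 was found in 8 of 12 Ribo-seq libraries, and in the other 4 Hspa5 stood above P4hb. Hsp90b1 was lowest in all 12.

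Calr measured 377 and 1193 RPKM in the 2 fed control libraries and 1336 and 1496 in the starved ones. Knockout cells had 1525 and 2269 RPKM fed and 1446 and 2038 starved. Thiamet-G cells had 269.6 and 1017 RPKM fed and 1588 and 722 starved. Calr was thus at 1446 RPKM or above in all 4 knockout libraries. Starved control replicate 2 (1496) and starved Thiamet-G replicate 1 (1588) also reached that level. Calr was lowest in replicate 1 of the fed control and fed Thiamet-G groups. Its group means ran from 1897 ± 526 (SD, n = 2) in fed knockout cells through 1742 ± 419 in starved knockout, 1416 ± 114 in starved control, 1155 ± 613 in starved Thiamet-G and 785 ± 577 in fed control to 644 ± 529 in fed Thiamet-G cells. Each neighbouring pair in that order differed by less than the larger of its SDs.

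Hspa5, the Hsp70 member, measured 131 and 638 RPKM in fed control and 602 and 554 in starved control libraries. It had 345 and 574 RPKM in fed knockout cells and 569 and 277 in starved ones, and 119 and 754 in fed Thiamet-G cells and 786 and 172 in starved ones. The fed and starved libraries overlapped in each background. Group means lay between 384 ± 359 RPKM in fed control and 578 ± 33.4 in starved control cells (SD, n = 2), and no neighbours in the order differed by more than the larger SD.

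Hsp90b1, the Hsp90 member, measured 58.5 and 359 RPKM in fed control and 320.1 and 321 in starved control libraries. Knockout cells had 196 and 438 RPKM fed and 322 and 275 starved, and Thiamet-G cells 58.1 and 279.6 fed and 383 and 108 starved. Its low libraries were those of Hspa5, and the groups overlapped in each background. Means lay between 169 ± 157 RPKM in fed Thiamet-G and 320.5 ± 0.62 in starved control cells (SD, n = 2), with every neighbouring pair closer than the larger SD.

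P4hb, the disulfide isomerase, measured 204 and 473 RPKM in fed control and 529.5 and 699 in starved control libraries. Both starved libraries thus exceeded both fed ones, as for 23.7% of the 8373 transcripts listed in every Ribo-seq file. Fed knockout cells had 542 and 589 RPKM and starved ones 495 and 653. Fed Thiamet-G cells had 169.8 and 678 RPKM and starved ones 910 and 358. Means lay between 338 ± 191 RPKM in fed control and 634 ± 390 in starved Thiamet-G cells (SD, n = 2), again with no neighbours further apart than the larger SD. Over all 15 pairs of groups, the means differed by more than the larger SD in 7 pairs for Calr, 3 for P4hb and 0 for Hspa5 and Hsp90b1.

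**Figure D1:**
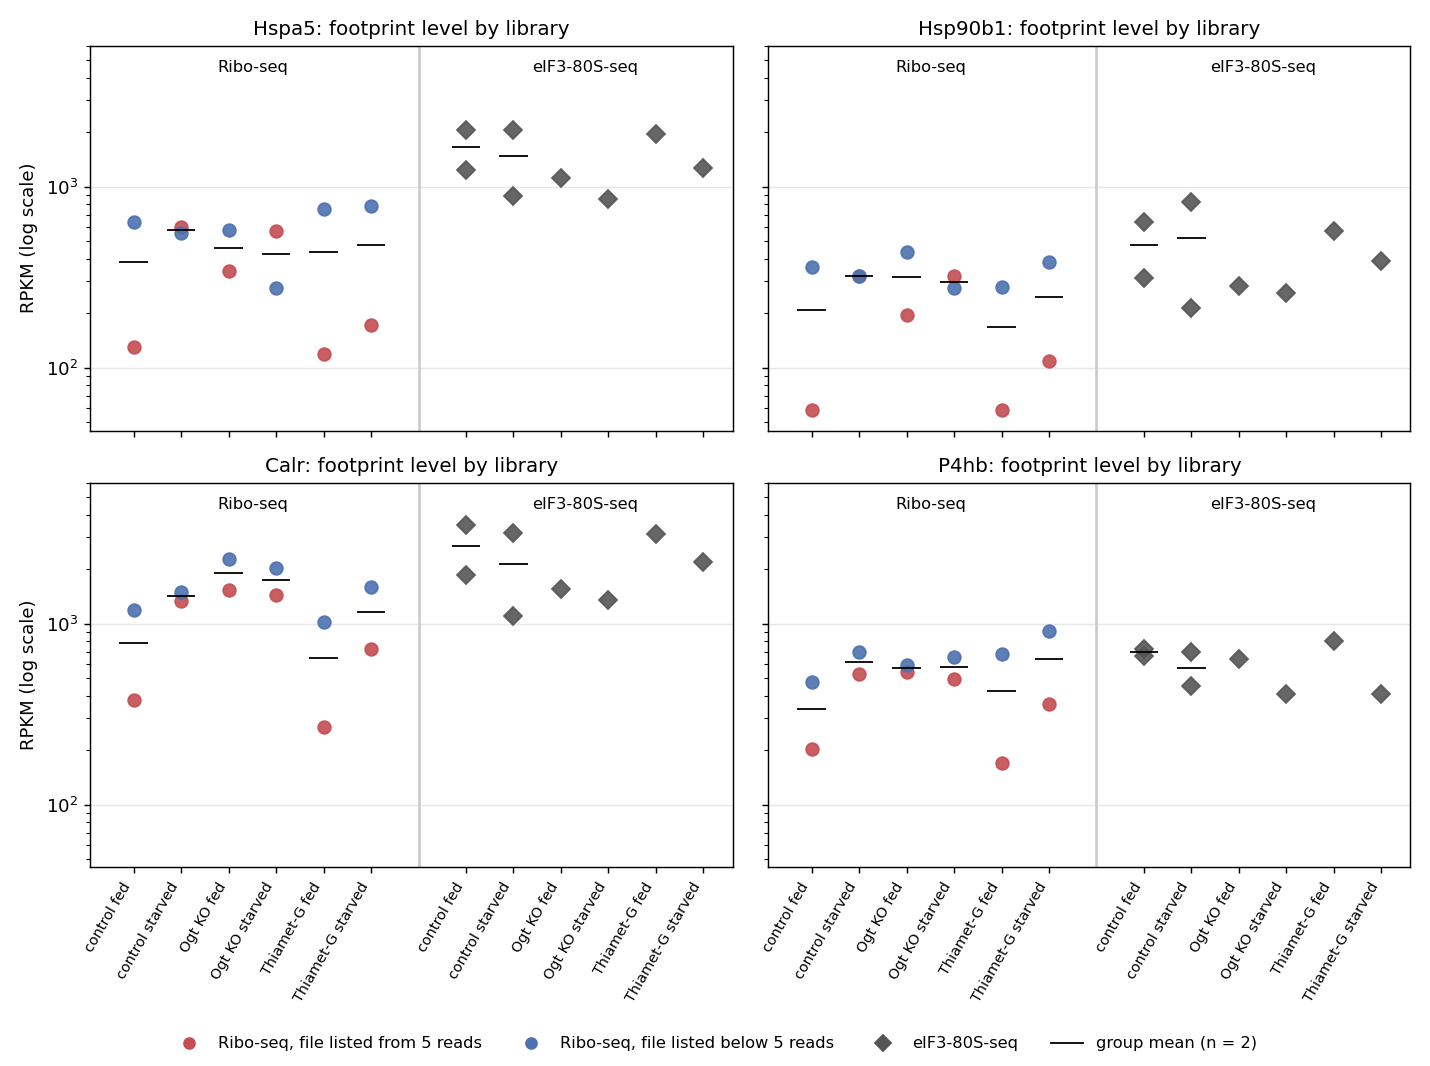
RPKM (log scale) of each chaperone transcript in every library, by assay and group, with circles for Ribo-seq coloured by the set the file belongs to, diamonds for eIF3-80S and bars for the mean of groups with 2 libraries. Calr lies highest in each library, and the circles of fed control, fed Thiamet-G and starved Thiamet-G cells in the set listed from 5 reads lie lowest in all 4 panels.

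The chaperones varied together. All 4 had the same 3 lowest Ribo-seq libraries, namely fed Thiamet-G replicate 1, fed control replicate 1 and starved Thiamet-G replicate 2. For Hsp90b1 these were at 58.1, 58.5 and 108 RPKM, and the next library was 1.81-fold above the highest of them; for Calr, Hspa5 and P4hb that step was 1.41-fold, 1.61-fold and 1.32-fold. Of the 2079 transcripts listed in all 12 files with a mean of at least 100 RPKM, 39 (1.88%) shared these 3 lowest libraries. The share was 22 of 318 (6.92%) among those with a coding length of 1200 to 2500 nt and 0 of 854 among those with up to 600 nt. This pattern was noticed in the values first and is given with no test. Reads on coding regions of up to 600 nt took 43.3% of fed control replicate 1 and 40.1% of fed Thiamet-G replicate 1, the highest shares of the 12 libraries, against 26.4% in starved Thiamet-G replicate 2 and 21.1% to 34.6% in the other 9. The part of this share in the chaperones' levels was not tested.

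As a share of all coding reads, the 4 transcripts together took 0.118% and 0.434% in the fed control libraries, 0.444% and 0.481% in starved control, 0.389% and 0.592% in fed knockout, 0.446% and 0.476% in starved knockout, 0.0971% and 0.447% in fed Thiamet-G, and 0.585% and 0.205% in starved Thiamet-G libraries. Outside the 3 low libraries the sum therefore stayed between 0.389% and 0.592%. Across the 12 Ribo-seq libraries, the transcript whose rescaled log2 level was most like Hspa5 was Hsp90b1 itself (Pearson r = 0.935), first of 2078. For Hsp90b1 and P4hb the closest was ENSMUST00000032168 (r = 0.947 and 0.954; coding length 1431 nt), and for Calr it was ENSMUST00000006367 (r = 0.948; 1443 nt). Hspa5 and Calr were less alike (r = 0.760). These correlations describe 12 libraries that share the sets and depths given above.

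Whether amino acid starvation altered ribosome occupancy of the chaperones was addressed with limma, which tested log2(RPKM + 1) after rescaling of the libraries, over all transcripts averaging 1 RPKM or more. Averaged over the 3 backgrounds, log2 fold changes of starved against fed cells were 0.58 for Calr (SE 0.423, limma adjusted p = 0.716), 0.53 for Hsp90b1 (SE 0.538), 0.49 for P4hb (SE 0.411) and 0.29 for Hspa5 (SE 0.562). Limma called 0 of the 4 at an adjusted p under 0.05, where 0.174% of all 10936 transcripts were called, and 0 of the 4 had an unadjusted p under 0.05, against 9% of all. The median of the 4 was 0.51, beside -0.013 for all transcripts tested. The 95% interval for Calr ran from -0.34 to 1.50 and that for Hspa5 from -0.93 to 1.51, so neither a rise of more than 2-fold nor a small fall lies outside it. With the 2 sets of files as a block, limma gave Calr an adjusted p of 0.382 and called 0 of the 4, beside 0.914% of all transcripts. Limma-voom on the recovered reads with that block gave unadjusted p under 0.05 for 3 of the 4, against 16.2% of all transcripts, and called 0 (lowest adjusted p = 0.137, for Calr at 0.67), beside 2.74% of all. The limma-voom fit with that block was chosen after seeing the data, here and below.

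In control cells alone the log2 fold changes were larger, 1.02 for Hsp90b1 (SE 0.932), 0.96 for Calr (SE 0.733), 0.88 for Hspa5 (SE 0.973) and 0.85 for P4hb (SE 0.711). None passed the adjustment (0 of the 4 called by limma, lowest adjusted p = 0.835), as 0% of all transcripts did, and 0 of the 4 had an unadjusted p under 0.05, against 6.8% of all. Both starved libraries exceeded both fed ones for Calr and P4hb, as they did for 23.7% of the 8373 transcripts listed in every Ribo-seq file. With the set of files as a block, limma gave a lowest unadjusted p of 0.0696 among the 4 (adjusted p = 0.498). Limma-voom with that block had 3 of the 4 at an unadjusted p under 0.05 (16.7% of all). It called 0 (lowest adjusted p = 0.176, for Calr at 1.08), beside 1.53% of all. The limma values from the unblocked fit rested on fed control replicate 1. Without it the fold changes were -0.20 for Hspa5, -0.22 for Hsp90b1, 0.19 for Calr and 0.31 for P4hb, and without replicate 2 they were 1.96, 2.26, 1.73 and 1.40. Fits that left out a library had no block, here and below. In Ribo-seq the reduced group then kept no library of the omitted library's set.

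Within the sets the same dependence was visible. In the set listed from 5 reads, the starved control library stood above the fed one by a log2 ratio of 2.29 for Hsp90b1, 2.04 for Hspa5, 1.66 for Calr and 1.21 for P4hb, on rescaled RPKM. In the other set the ratios were -0.23, -0.27, 0.26 and 0.50. Hspa5 and Hsp90b1 thus differed in direction between the sets, while Calr and P4hb were above 0 in both. Of the 8373 transcripts listed in every Ribo-seq file, 90.91% had a lower ratio than Calr in the first set and 59.45% in the other. For P4hb these shares were 81.79% and 66.69%, for Hsp90b1 97.69% and 42.46%, and for Hspa5 95.62% and 41%.

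In Thiamet-G cells limma gave 0.90 for Calr (SE 0.733), 0.62 for P4hb (SE 0.711), 0.54 for Hsp90b1 (SE 0.932) and 0.16 for Hspa5 (SE 0.973). It called 0 of the 4 (lowest adjusted p = 0.873; 0% of all transcripts), and 0 had an unadjusted p under 0.05, against 5.97% of all. All 4 were above 0 in both sets, with log2 ratios of 1.16 and 0.64 for Calr, 0.82 and 0.42 for P4hb, 0.64 and 0.45 for Hsp90b1 and 0.27 and 0.056 for Hspa5, the set listed from 5 reads given first. In that set both libraries compared were among the 3 lowest. Of the 8373 transcripts listed in every Ribo-seq file, 92.25% had a lower ratio than Calr there and 67.32% in the other set. For P4hb these shares were 84.33% and 61.79%, for Hsp90b1 77.74% and 62.5%, and for Hspa5 61.53% and 52.05%. Without fed Thiamet-G replicate 1 all 4 estimates turned negative, to -0.070 for Calr, -0.39 for P4hb, -0.60 for Hsp90b1 and -1.18 for Hspa5. That fit had no block and set a fed library of the other set against starved libraries of both sets. The reversal therefore mixes starvation with the difference between the sets. With the set as a block, limma gave a lowest unadjusted p of 0.0870 among the 4 (adjusted p = 0.567). Limma-voom with the set as a block had Calr alone at an unadjusted p under 0.05 (1 of the 4, against 7.06% of all). It called 0, beside 0.111% of all (adjusted p = 0.601 for Calr).

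In knockout cells the estimates lay near 0. They were -0.17 for Hspa5 (SE 0.973), 0.016 for Hsp90b1 (SE 0.932), -0.12 for Calr (SE 0.733) and 0.0018 for P4hb (SE 0.711), and limma called 0 of the 4 (0% of all transcripts). At an unadjusted p under 0.05 there were 0 of the 4, against 0.905% of all. In this fit, without the set of files as a block, the interval for Calr, from -1.71 to 1.47, still allows changes of more than 2-fold either way. Calr was slightly lower in starved cells in both sets (log2 ratios of -0.11 and -0.13). Of the 8373 transcripts listed in every Ribo-seq file, 38.97% and 46.08% had a lower ratio still. Hspa5 and Hsp90b1 were higher in the set listed from 5 reads (0.69 and 0.68) and lower in the other (-1.03 and -0.65), and P4hb was at -0.17 and 0.17. Counted over all 6 pairs of one background and set, starved stood above fed in 5 for P4hb and in 4 each for Calr, Hsp90b1 and Hspa5. The share of all transcripts with as many such pairs is not given here.

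**Figure D2:**
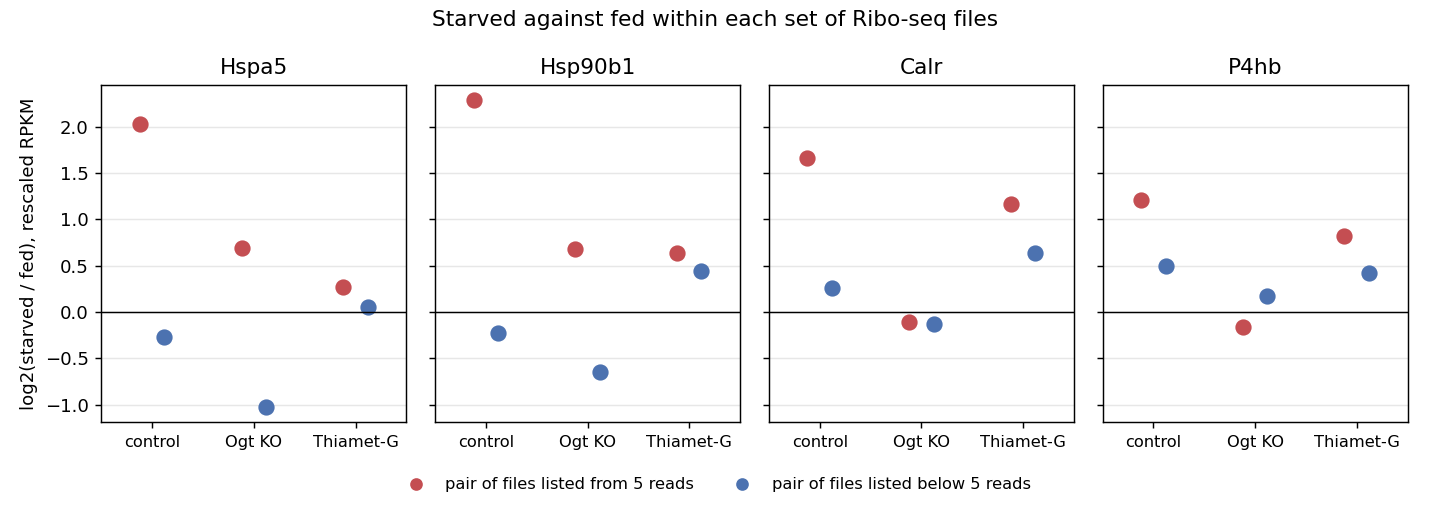
Log2 ratio of starved to fed rescaled RPKM in Ribo-seq for each chaperone, 1 point per background and set of files. Points of control cells in the set listed from 5 reads reach 1.21 to 2.29, Calr is above 0 in both sets of control and Thiamet-G cells, and Hspa5 falls on opposite sides of 0 in control and in knockout cells.

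Whether starvation acted differently on the chaperones in modified cells was tested as an interaction. The difference between the starvation response of knockout and control cells was -1.05 for Hspa5 (SE 1.38), -1.01 for Hsp90b1 (SE 1.32), -1.08 for Calr (SE 1.04) and -0.85 for P4hb (SE 1.01). The interaction was called by limma for 0 of the 4, beside 0% of all transcripts, and 0 had an unadjusted p under 0.05, against 1.98% of all. All 4 estimates shrank without fed control replicate 1, to 0.031 for Hspa5, 0.24 for Hsp90b1, -0.31 for Calr and -0.30 for P4hb. With the set as a block, limma gave a lowest unadjusted p of 0.1399 among the 4 (adjusted p = 0.962). Limma-voom with the set as a block had Calr alone at an unadjusted p under 0.05 (1 of the 4, against 3.26% of all). It called 0, beside 0.0101% of all (adjusted p = 0.993). For Thiamet-G the differences were -0.72, -0.48, -0.061 and -0.24 in the same order, with 0 of the 4 called (0% of all transcripts) and 0 at an unadjusted p under 0.05, against 1.33% of all.

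Fed cells of different backgrounds were compared next. Calr was the chaperone furthest apart between knockout and control cells, with a log2 fold change of 1.32 (SE 0.733, 95% interval -0.27 to 2.91), ahead of Hsp90b1 at 0.86, P4hb at 0.71 and Hspa5 at 0.47. Limma called 0 of the 4 (adjusted p = 1 for each), as it called 0% of all transcripts, and 0 had an unadjusted p under 0.05, against 3.67% of all. Both fed knockout libraries exceeded both fed control ones for Calr and P4hb, as in 22.7% of the 8373 transcripts. The median of the 4 was 0.78, beside -0.0074 for all transcripts. In the set listed from 5 reads the log2 ratio of knockout to control was 1.76 for Calr, 1.49 for Hsp90b1, 1.16 for P4hb and 1.15 for Hspa5. In the other set it was 0.88, 0.23, 0.26 and -0.20. Calr, Hsp90b1 and P4hb were thus higher in knockout cells in both sets and Hspa5 in 1 of them. In the set listed from 5 reads, 98.27% of the 8373 transcripts had a lower ratio than Calr, and 77.16% in the other. For Hsp90b1 these shares were 95.87% and 58.26%, for P4hb 89.73% and 59.12%, and for Hspa5 89.36% and 43.08%. Without fed control replicate 1 the fold changes were 0.54 for Calr and 0.16 for P4hb, and those of Hsp90b1 and Hspa5 reversed, to -0.39 and -0.62. With the set as a block, limma gave a lowest unadjusted p of 0.0171 among the 4 (adjusted p = 0.697). Limma-voom with the set as a block gave Calr 1.46 with an unadjusted p of 0.000975. That did not pass the adjustment over all transcripts (adjusted p = 0.192, with 0% of them called). In that fit 2 of the 4, Calr and P4hb, had an unadjusted p under 0.05, against 9.17% of all.

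For Thiamet-G against control in fed cells the log2 fold changes were small, at 0.036 for Hspa5, -0.20 for Hsp90b1, -0.37 for Calr and 0.11 for P4hb. Of the 4, limma called 0 (0% of all transcripts), and 0 had an unadjusted p under 0.05, against 0.466% of all. The 95% intervals of the 4 ran from as low as -2.22 to as high as 2.15, which leaves room for sizeable changes in either direction. In starved cells the knockout differed from control by -0.58 for Hspa5, -0.15 for Hsp90b1, 0.23 for Calr and -0.14 for P4hb, and Thiamet-G by -0.68, -0.68, -0.43 and -0.12. In both, limma called 0 of the 4 (0% of all transcripts), and 0 had an unadjusted p under 0.05, against 1.34% of all for the knockout and 2.89% for Thiamet-G. All comparisons with control share the control libraries and are not independent of each other. The Thiamet-G estimates in starved cells rested on starved Thiamet-G replicate 2, and without it were 0.55, 0.36, 0.27 and 0.68.

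**Figure D3:**
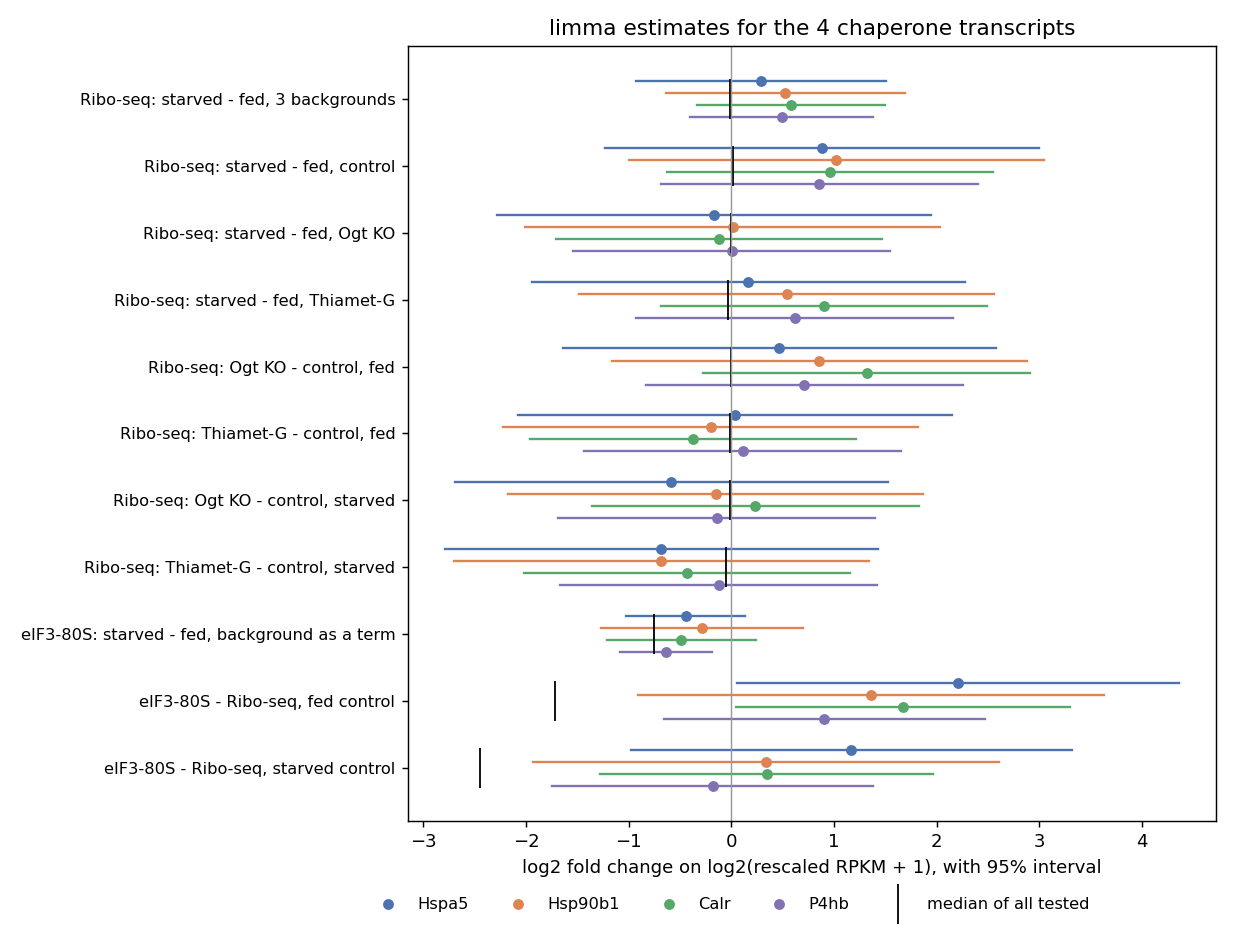
Log2 fold changes with 95% intervals from limma for each chaperone in 8 Ribo-seq comparisons, 1 eIF3-80S comparison and 2 comparisons between assays, with a black line at the median of all transcripts tested. Each Ribo-seq interval includes 0, and the black line lies at -1.72 and -2.45 in the comparisons between assays, where unlisted transcripts count as 0. The fits shown had no block for the set of files.

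Among ribosomes associated with eIF3, Hspa5 stood above P4hb in all 8 libraries, as it did in 4 of 12 Ribo-seq libraries. Calr had 1858 and 3513 RPKM in fed control libraries and 1104 and 3154 in starved ones, 1546 and 1347 in the fed and starved knockout library, and 3130 and 2177 in the fed and starved Thiamet-G library. Hspa5 measured 1239 and 2060 in fed control, 887 and 2064 in starved control, 1114 and 861 in fed and starved knockout, and 1953 and 1276 in fed and starved Thiamet-G libraries. Both were lowest in a starved library and overlapped between fed and starved control cells.

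P4hb had 663 and 726 RPKM in fed control, 451 and 693 in starved control, 634 and 409.9 in fed and starved knockout, and 806 and 410.4 in fed and starved Thiamet-G libraries. Hsp90b1 had 312 and 636 RPKM in fed control, 215 and 829 in starved control, 285 and 260.3 in fed and starved knockout, and 569 and 388 in fed and starved Thiamet-G libraries. Starved control replicate 2 was the exception for both. There P4hb was at 693 RPKM and Hsp90b1 at its highest value of the assay, so that P4hb was the lowest of the 4. In the other 7 eIF3-80S libraries the order was Calr, Hspa5, P4hb, Hsp90b1, which 4 of 12 Ribo-seq libraries also had.

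Starvation in eIF3-80S was tested over all 8 libraries with background as a term. Log2 fold changes were -0.64 for P4hb (SE 0.188), -0.49 for Calr (SE 0.303), -0.45 for Hspa5 (SE 0.242) and -0.29 for Hsp90b1 (SE 0.411). Limma called 0 of the 4, where 0.284% of all 7734 transcripts were called. P4hb was the 1 of the 4 with an unadjusted p under 0.05, at 0.0126 (limma adjusted p = 0.382), and 8.38% of all transcripts were under 0.05. Among the 1679 transcripts listed in every eIF3-80S library its adjusted p was 0.0903, with 0 of the 4 called beside 10.7% of the 1679. The median of the 4 was -0.47. The median of all 7734 was -0.75, but it was 0.025 among those 1679. Leaving out any 1 library kept P4hb between -0.74 and -0.56. Quantile normalization moved P4hb to -0.39 and turned Hspa5 and Calr to 0.083 and 0.15, with 0 of the 4 at an unadjusted p under 0.05 in limma (lowest 0.169). On RPKM without rescaling 0 of the 4 were under 0.05 either (lowest 0.0576). With the replicate number of the titles as a block, 3 of the 4 were under 0.05 in limma (lowest unadjusted p = 0.0154). That fit called 0 of the 4 (lowest adjusted p = 0.429). A pseudocount of 0.1 and no filter on low values each kept 1 of the 4 under 0.05 in limma, as did limma-voom. The share of all transcripts under 0.05 in these alternatives is not given here.

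In control cells alone, with 2 libraries in each state, the estimates were -0.65 for Calr (SE 0.634), -0.51 for P4hb (SE 0.228), -0.44 for Hspa5 (SE 0.487) and -0.27 for Hsp90b1 (SE 0.825). Again 0 of the 4 were called by limma (lowest adjusted p = 0.747; 0% of all transcripts), and 0 had an unadjusted p under 0.05, against 7.32% of all. The single knockout libraries gave starved-to-fed log2 ratios of -0.83 for P4hb, -0.57 for Hspa5, -0.40 for Calr and -0.33 for Hsp90b1 on rescaled RPKM. The single Thiamet-G libraries gave -0.70, -0.34, -0.25 and -0.28. Those 2 pairs have no replicate check. P4hb had the lowest ratio of the 4 in both.

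The assays were compared in fed and in starved control cells. In fed cells limma put eIF3-80S above Ribo-seq by 2.21 for Hspa5 (SE 0.985), 1.67 for Calr (SE 0.744), 1.36 for Hsp90b1 (SE 1.04) and 0.90 for P4hb (SE 0.716). Limma called 0 of the 4 (adjusted p = 0.125, 0.124, 0.372 and 0.390 in that order), where 24.4% of all 10542 transcripts were called and 0.427% were called higher. Hspa5 and Calr had unadjusted p-values of 0.0451 and 0.0446 in limma, and 37.4% of all transcripts were under 0.05. Both eIF3-80S libraries exceeded both Ribo-seq ones for Hspa5, Calr and P4hb, as for 38.3% of the 1675 transcripts listed in every library of both assays. The median of the 4 was 1.51 beside -1.72 for all transcripts, but among those 1675 the median of all was -0.031. Without fed Ribo-seq control replicate 1 the fold changes were 1.13 for Hspa5, 0.90 for Calr, 0.11 for Hsp90b1 and 0.35 for P4hb.

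In starved control cells the same comparison gave 1.17 for Hspa5 (SE 0.985), 0.34 for Calr and for Hsp90b1, and -0.18 for P4hb. Limma called 0 of the 4, where 30.4% of all transcripts were called and 0.37% were called higher, and 0 of the 4 had an unadjusted p under 0.05, against 44.2% of all. The median of all transcripts was -2.45, but 0.0040 among the 1675 listed in every library, so that P4hb lay below it there. Both eIF3-80S libraries exceeded both Ribo-seq ones for Hspa5 alone, as for 21.6% of the 1675. RPKM is relative to each library's total, and fragments were selected over a wider range of sizes in eIF3-80S, so a level cannot be set across the assays as an absolute amount.

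Ratios between chaperones within a library do not depend on that total. Hspa5 was at 0.425 to 1.35 of P4hb in the 12 Ribo-seq libraries (median 0.828) and at 1.76 to 3.11 in the 8 eIF3-80S libraries (median 2.26), with no overlap. It was the 1 of the 6 ratios between chaperones that separated the assays, as did 5.67% of all 1401975 pairs of the 1675 transcripts. The ratio of Hspa5 to Hsp90b1 was 1.01 to 2.70 (median 1.77) in Ribo-seq and 2.49 to 4.13 (median 3.37) in eIF3-80S. For Hspa5 to Calr the ranges were 0.136 to 0.741 (median 0.382) and 0.586 to 0.803 (median 0.647). Hspa5 was therefore read more heavily relative to each of the other 3 in eIF3-80S, by median. P4hb went the other way, with medians of 0.432 of Calr in Ribo-seq and 0.281 in eIF3-80S, and the median ratio of Hsp90b1 to P4hb was 0.421 in Ribo-seq and 0.670 in eIF3-80S. The ratio of Hsp90b1 to Calr differed least, with medians of 0.215 and 0.183 and overlapping ranges (0.128 to 0.301 and 0.168 to 0.263). These ratios were chosen after the levels had been seen and are given as a description, with no test.

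Fed and starved libraries were mixed within those ranges. In eIF3-80S the ratio of Hspa5 to Calr was 0.586 to 0.721 in the 4 fed and 0.586 to 0.803 in the 4 starved libraries. In Ribo-seq it was 0.226 to 0.741 in the 6 fed and 0.136 to 0.495 in the 6 starved libraries. As a share of coding reads the 4 chaperones together took 0.578% to 1.11% of fed and 0.433% to 1.11% of starved eIF3-80S libraries, against 0.0971% to 0.592% of Ribo-seq libraries. The assays also differed in length make-up. Reads on coding regions of up to 600 nt took 12.2% to 20.2% of eIF3-80S libraries and 21.1% to 43.3% of Ribo-seq libraries. The part of this difference in the chaperones' shares was not tested.

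**Figure D4:**
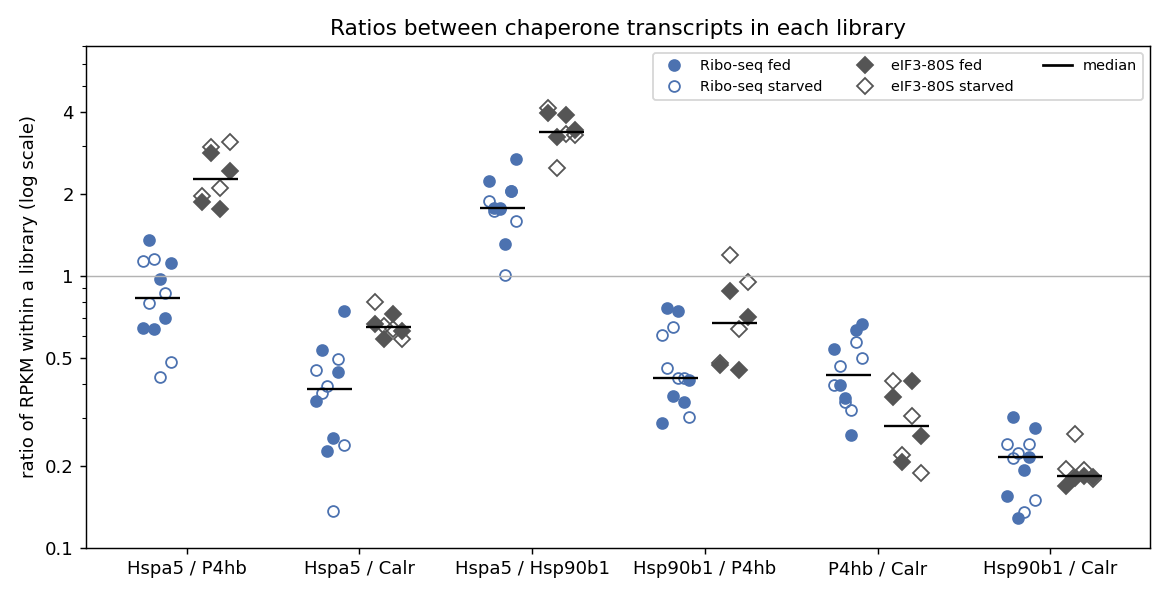
Ratio of RPKM between pairs of chaperone transcripts within each library (log scale), with circles for Ribo-seq, diamonds for eIF3-80S, filled for fed and open for starved cells, and a bar at the median of each assay. Hspa5 over P4hb separates the assays (0.425 to 1.35 against 1.76 to 3.11), whereas Hsp90b1 over Calr overlaps.

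Other genes of the same folding pathway and markers of fibroblasts and other cell types were not analysed here, because no table used here pairs their symbols with the transcript identifiers of the files. For the same reason the level of Ogt, which would check the knockout labels, was not analysed here.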

How the data were processed

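The authors deposited 1 file per library with an Ensembl transcript identifier and its RPKM. Trimming and alignment tools (cutadapt, STAR) and GRCm38 are listed in the submitters' processing notes; the sources used here do not name a read counter, an annotation or a filter. Groups and replicates came from sample titles. Members, gene lists and tests were chosen with earlier results of these data known. The rule named the 4 members, counted pathway genes where a table paired symbols with identifiers (0 matched), and named the transcript most like each member, with at most 2 identifiers.

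Whole reads were recovered from RPKM steps (relative tolerance 1e-09) for 12249 of 15354 transcripts, with at least 93.12% of each library's values recovered; 99.6% of lengths were multiples of 3. Unlisted transcripts were taken as 0. Each library's RPKM was divided by its median ratio to transcript-wise geometric means, taken where no library of the fit lacked the transcript. On log2(RPKM + 1), limma 3.58.1 (R 4.3.3; lmFit, then eBayes with trend) tested transcripts averaging 1 RPKM or more, two-sided; this scale understates changes of low transcripts. P-values were adjusted by Benjamini-Hochberg over all transcripts tested, with a threshold of 0.05. All 6 Ribo-seq groups shared 1 fit. Alternatives were a pseudocount of 0.1, filters, no rescaling, quantile normalization, limma-voom on recovered reads averaging at least 10, blocks, and leaving out each library. Scripts were tested on simulated data.

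Deviations from group means correlated at -0.394 to 0.453 between same-numbered libraries by title (10 of 15 pairs of groups over 0.1), so titles do not pair libraries. By set of files they correlated at 0.188 to 0.453 (15 of 15), and the set was taken as pairing; its block is given beside results where it bears on them. The 2 starved Thiamet-G Ribo-seq libraries carry opposite numbers in titles and file names; titles were used.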

Additional observations from a re-analysis of the deposited data

Results flagged for a closer look

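P4hb in starved control replicate 2 stood apart from the other starved eIF3-80S libraries. It measured 692.8 RPKM, against 409.9 to 451 RPKM in the other 3, a gap larger than Dixon's test allows for 4 values at the 95% level. Of 16 groups of fed or starved libraries tested in this way, over the 4 chaperones and both assays, 1 was marked, and chance alone marks about 1 in 20. In the same library Hsp90b1, Hspa5 and Calr were also at or near the top of the starved range, at 829, 2064 and 3154 RPKM. On rescaled RPKM, the values used in the fits, that library had 606 against 364 to 465 in the other 3, and 0 of the 16 groups were marked. The cause was not tested.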

How the results depend on the processing

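No chaperone was called in any of the 14 comparisons under alternatives other than leaving out a library. The lowest adjusted p was 0.0634, for Calr between the assays in fed control cells under quantile normalization (limma). In the main fit limma called 24.4% of all transcripts in that comparison and 30.4% between the assays in starved control cells. Within an assay it called at most 0.284%. The share called under most alternatives is not given here, so these counts do not tell the chaperones from other transcripts. Over alternatives other than leaving out a library, 13 of 504 log2 fold changes changed sign, in 11 of 56 results. Quantile normalization gave -0.00075 for Hsp90b1, 0.11 for Calr and -0.041 for P4hb for starvation in knockout Ribo-seq, 0.15 for Hspa5, 0.062 for Hsp90b1 and 0.0061 for Calr for starvation in control eIF3-80S, 0.083 for Hspa5 and 0.15 for Calr over all eIF3-80S backgrounds, and 0.37 for P4hb between the assays in starved control cells. Limma-voom gave -0.0065 for P4hb for starvation in knockout cells, -0.0040 for Hspa5 for Thiamet-G in fed cells, 0.00043 for Calr for the interaction with Thiamet-G and 0.035 for P4hb between the assays in starved cells. The cause was not tested.

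Leaving out single libraries changed the sign of 66 of 560 values, in 36 of 56 results. A group left with 1 library was then assumed to vary like the others. These fits had no block, and a Ribo-seq group left with 1 library held only 1 set of files. Changes of sign in Ribo-seq therefore mix in the difference between the sets. In Ribo-seq the ranges for starvation were -0.15 to 0.74 for Hspa5 averaged over backgrounds, -0.20 to 1.96 for Hspa5 and -0.22 to 2.26 for Hsp90b1 in control cells, -0.62 to 0.27 for Hspa5, -0.61 to 0.64 for Hsp90b1, -0.45 to 0.21 for Calr and -0.28 to 0.27 for P4hb in knockout cells, and -1.18 to 1.52, -0.60 to 1.69, -0.070 to 1.88 and -0.39 to 1.64 for these 4 in Thiamet-G cells. For the knockout against control they were -0.62 to 1.54 for Hspa5 and -0.39 to 2.09 for Hsp90b1 fed, and -0.086 to 0.55 for Calr and -0.42 to 0.13 for P4hb starved. For Thiamet-G against control they were -1.31 to 1.38 for Hspa5, -1.44 to 1.04 for Hsp90b1, -1.35 to 0.60 for Calr and -0.90 to 1.12 for P4hb fed, and -1.92 to 0.55, -1.73 to 0.36, -1.15 to 0.27 and -0.94 to 0.68 starved. Interactions with the knockout ranged from -2.13 to 0.031 for Hspa5 and -2.25 to 0.24 for Hsp90b1, and those with Thiamet-G from -2.06 to 0.64, -1.72 to 0.76, -1.03 to 0.93 and -1.25 to 0.79. In eIF3-80S, starvation ranged from -0.96 to 0.091 for Hspa5, -1.16 to 0.62 for Hsp90b1 and -1.32 to 0.025 for Calr in control cells and from -0.64 to 0.076 for Hsp90b1 over all backgrounds. Between the assays in starved control cells the ranges were -0.57 to 1.26 for Hsp90b1, -0.35 to 1.05 for Calr and -0.53 to 0.16 for P4hb.

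With the replicate number of the titles as a block, fold changes were as without it (0.58 for Calr averaged over backgrounds) and 0 of the 4 were called. In eIF3-80S over all backgrounds that block put 3 of the 4 at an unadjusted p under 0.05 in limma, and the main fit 1. Blocking by set of files also called 0, with limma, limma-voom or transcripts listed in every library (the last 2 chosen after seeing the data). For starvation averaged over backgrounds, limma called 0.914% of all transcripts with the set as a block and limma-voom 2.74%. Limma-voom with the set as a block called 1.53% for starvation in control cells and 0% for the knockout against control in fed cells. Shares of all transcripts called with the replicate number as a block are not given here. Depth limits Hsp90b1 and P4hb most in eIF3-80S, with 27 and 36 reads in starved control replicate 1.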
